A study of Mus musculus with 72 samples.

Results

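The 10 genes described here form the core circadian clock and its first outputs: Arntl, Per1, Per2, Per3, Nr1d1, Nr1d2, Dbp, Tef, Hlf and Ciart. They were chosen by name among the 16593 genes with 1 symbol on an Illumina MouseRef-8 expression array, and each was read from the brightest of its probes. All 10 were present on the array, through 17 probes. Total RNA came from the kidney cortex and the kidney medulla of Balb/c mice. The nuclide was 177-lutetium (177Lu), a beta-emitting radionuclide, and exposed mice had absorbed doses of 0.3, 3 or 10 Gy. The controls carry the same nuclide label with no absorbed dose. Tissue was labelled 1.5, 3 or 4.5 months, which gave 24 groups of 3 arrays, or 72 arrays in all. Control cortex at 1.5 months is read from 2 arrays, because the rule leaves its array number 3 out, and 71 arrays remain. That array stood apart, with a mean correlation of 0.769 with the other cortex arrays, against 0.976 to 0.984 among them. The labels give no age, sex or animal number, and no hour of the day at which tissue was taken. Separate animals are not stated for the arrays of a group, and the p-values therefore measure the spread between these arrays.

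The mammalian clock is a loop of transcription factors that runs in nearly every cell, kidney tubule cells included. ARNTL (also called BMAL1) pairs with CLOCK and switches on genes that carry E-box sequences, among them the Per genes, Nr1d1, Nr1d2, Dbp and Ciart. The PER proteins, and CIART as a further repressor, then hold that activator back, while the nuclear receptors NR1D1 and NR1D2 repress Arntl through ROR elements. DBP, TEF and HLF are related bZIP factors that act on D-box sequences. Because of this wiring Arntl peaks at nearly the opposite time of day from Dbp and the Per genes. Per1 and, in part, Per2 also respond directly to glucocorticoid hormones.

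Promoter windows were available for 9 of the 10 genes, as 12 windows in RefSeq's table of GRCm38.p6, each running from 250 bases before to 50 bases after a start site. Shown are windows of genes whose levels carry the results or that hold more than 1 motif, printed from 5′ to 3′ on the gene's strand. Capitals mark a motif: the E-box CACGTG, the D-box TTATGTAA or TTACGTAA, and the ROR element TAGGTCA or TGGGTCA. Both strands were searched, and no overlap between motifs was found in these windows.
Ciart, chr3:95882179-95882478, minus strand: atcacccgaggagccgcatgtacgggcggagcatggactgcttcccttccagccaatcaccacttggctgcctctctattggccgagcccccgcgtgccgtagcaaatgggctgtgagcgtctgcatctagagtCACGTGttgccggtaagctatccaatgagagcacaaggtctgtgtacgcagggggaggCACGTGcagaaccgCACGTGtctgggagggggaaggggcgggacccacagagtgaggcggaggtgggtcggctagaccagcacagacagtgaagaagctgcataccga
Per1, chr11:69098699-69098998, plus strand: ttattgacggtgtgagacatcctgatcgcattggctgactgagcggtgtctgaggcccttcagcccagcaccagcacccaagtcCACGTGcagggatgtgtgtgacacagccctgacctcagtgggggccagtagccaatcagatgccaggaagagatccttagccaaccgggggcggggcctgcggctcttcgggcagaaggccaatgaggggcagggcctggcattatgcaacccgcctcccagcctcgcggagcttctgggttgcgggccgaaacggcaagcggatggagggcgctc
Per3, chr4:151044616-151044915, minus strand: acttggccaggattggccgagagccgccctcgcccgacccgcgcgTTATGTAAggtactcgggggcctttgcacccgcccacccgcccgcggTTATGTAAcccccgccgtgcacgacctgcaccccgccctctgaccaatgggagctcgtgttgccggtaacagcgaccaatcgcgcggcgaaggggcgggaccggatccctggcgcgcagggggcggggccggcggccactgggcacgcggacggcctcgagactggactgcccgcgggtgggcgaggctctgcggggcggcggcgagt
Arntl, chr7:113207261-113207560, plus strand: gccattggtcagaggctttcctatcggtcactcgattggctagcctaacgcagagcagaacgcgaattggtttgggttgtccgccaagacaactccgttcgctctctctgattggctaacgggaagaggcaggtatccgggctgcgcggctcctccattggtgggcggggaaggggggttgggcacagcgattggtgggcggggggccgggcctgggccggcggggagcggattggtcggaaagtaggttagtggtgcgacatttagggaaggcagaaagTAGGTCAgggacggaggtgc
The Ciart window held 3 E-boxes, whose first bases lie at -116, -58 and -44 from the start site, and 29 of the 32851 windows in the table held 3 or more. Per1 had 1 E-box at -166 in the first of its windows. Each of the windows of Tef, a bZIP factor, held 1 E-box, at -127 and at -138. Of all windows, 7.15% held an E-box. The Per3 window held 2 D-boxes at -205 and -158, and 8 of all windows held 2 or more; 1.06% held any. The second of the Arntl windows held a ROR element at 31 bases from the start site, a motif found in 6.45% of all windows. None of these motifs was found in the windows of Dbp, Hlf, Nr1d1 and Nr1d2. A match describes the letters of the window and was not tested as a binding site.

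Intensities were the authors' normalized values, analysed on the log2 scale, where 1 unit is a doubling. Dbp was the brightest probe, with a mean log2 intensity of 12.70 over the 71 arrays, followed by Per2 at 10.70, Tef at 10.63 and Nr1d2 at 10.60. Per1 averaged 9.30 and Nr1d1 8.61. Ciart at 7.96, Per3 at 7.60, Arntl at 7.43 and Hlf at 7.13 lay close to the floor of 7.23 (an intensity of 150) used to keep probes for testing. Different probes bind with different strength, so this order does not rank the genes by RNA level. Arntl was under the floor on 16 of 71 arrays and Hlf on 53, so that Hlf entered the tests in the cortex and in the joint fit of both tissues but not in the medulla. A gene passed the test where its limma p-value, adjusted by Benjamini-Hochberg over all genes tested in a comparison, was under 0.05.

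The clearest pattern was a shift at 3 months, shared by cortex and medulla. Differences between months cannot be told apart here from differences in hour of day, collection session or age. The groups of a month may share these, in both tissues and in control and exposed mice. Per1, Per2 and Ciart, repressors of the loop, were high at 3 months, and Arntl, its activator, was low. In both tissues the 4 groups of 3 months (control and 3 doses) were the top 4 of 12 group means for Per1, Per2 and Ciart. For Arntl they were the bottom 4 of 12 in the cortex and 3 of the bottom 4 in the medulla. Neighbours in this order mostly lay close together: of 11 gaps between adjacent group means, 1 to 3 were wider than the median within-group SD for Per1, Per2 and Ciart, and 0 for Arntl. In such bulk RNA fewer cells of a type and less RNA per cell cannot be told apart.

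**Figure D1:**
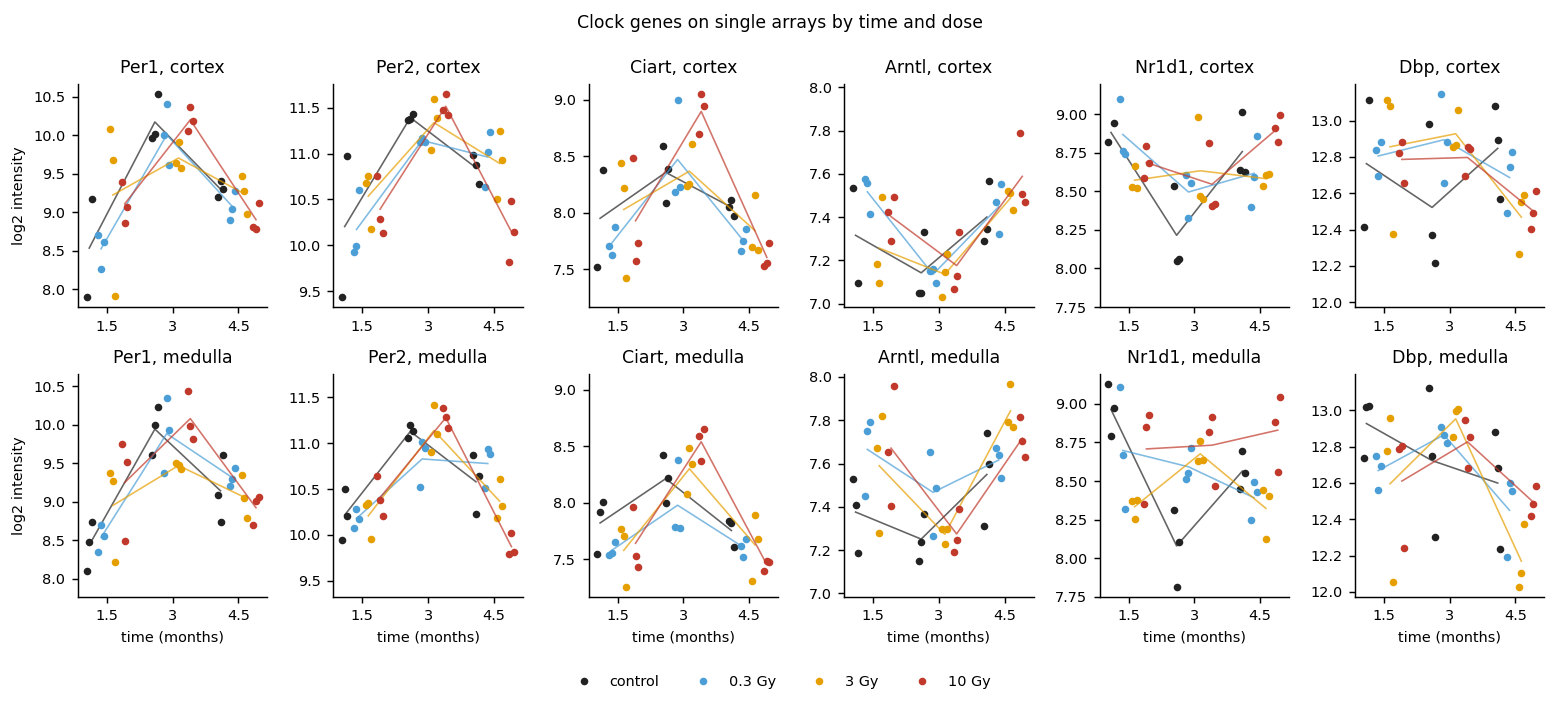
Log2 intensity (vertical axis) of 6 clock genes on single arrays at 1.5, 3 and 4.5 months, in the cortex (top) and the medulla (bottom). Points are arrays, coloured by dose, and lines join group means. Per1, Per2 and Ciart peak at 3 months in control and exposed groups alike, with group means up to 10.20, 11.52 and 8.90 in the cortex, and Arntl dips there.

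Per2, a repressor of the ARNTL and CLOCK pair, showed the shift in the exposed cortex. On the 9 exposed cortex arrays of each time, Per2 ran from 9.93 through a median of 10.29 to 10.76 at 1.5 months, from 11.04 through 11.38 to 11.65 at 3 months and from 9.81 through 10.64 to 11.25 at 4.5 months. Every 3 month array lay above every 1.5 month array, while 5 of 9 lay above the highest array of 4.5 months. The share of all genes without an overlap was not determined, so overlap here and below only describes these arrays. The difference was 0.97 ± 0.15 (log2, SE, n = 9 and 9), a ratio of 1.95, between 3 and 1.5 months (limma adjusted p = 0.000181), and Per2 fell by 0.67 ± 0.15 from 3 to 4.5 months (limma adjusted p = 0.00805). In the exposed medulla Per2 had medians of 10.28, 11.10 and 10.32 at 1.5, 3 and 4.5 months, with 8 of 9 arrays of 3 months above the highest of 1.5 months. It rose there by 0.82 ± 0.10 (limma adjusted p = 2.59e-06) and then fell by 0.74 ± 0.10 (limma adjusted p = 1.39e-05). A further Per2 probe gave close values of 0.96 and 0.88 between 3 and 1.5 months in cortex and medulla; the remaining, dim one was under the floor on 66 of 71 arrays.

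Per1, a period gene and itself a glucocorticoid target, followed the same course. In the exposed cortex it ran from 7.92 through 8.86 to 10.07 at 1.5 months, from 9.57 through 10.00 to 10.40 at 3 months and from 8.78 through 9.04 to 9.47 at 4.5 months. The arrays of 3 months did not overlap with those of 4.5 months but did overlap with the widely spread arrays of 1.5 months. Per1 rose by 1.02 ± 0.19 from 1.5 to 3 months, a ratio of 2.03 (limma adjusted p = 0.00167), and fell by 0.90 ± 0.19 afterwards (limma adjusted p = 0.00551). In the exposed medulla its medians were 8.70, 9.82 and 9.06, and both differences passed the test again, at 0.90 ± 0.17 (limma adjusted p = 0.00119) and -0.71 ± 0.17 (limma adjusted p = 0.0125). The dimmer Per1 probe gave 0.67 and 0.65 for the rise in cortex and medulla.

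Ciart, whose promoter window held the 3 E-boxes, ran from 7.43 through 7.73 to 8.49 in the exposed cortex at 1.5 months, from 8.18 through 8.61 to 9.05 at 3 months and from 7.53 through 7.70 to 8.16 at 4.5 months. Again the 3 and 4.5 month arrays did not overlap. Ciart rose by 0.68 ± 0.14 (limma adjusted p = 0.0033) and fell by 0.85 ± 0.14 (limma adjusted p = 0.00044) in the cortex. In the medulla the corresponding differences were 0.67 ± 0.10 (limma adjusted p = 3.97e-05) and -0.71 ± 0.10 (limma adjusted p = 2.1e-05), and 7 of 9 arrays of 3 months lay above the highest at either other time.

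Arntl moved the other way. In the exposed cortex it ran from 7.10 through 7.43 to 7.58 at 1.5 months, from 7.03 through 7.15 to 7.33 at 3 months and from 7.32 through 7.51 to 7.79 at 4.5 months, and 7 of the 9 arrays of 3 months lay under the floor, so the size of its difference is not set against those of the brighter probes. As no cortex group of 3 months met the filter, Arntl entered the cortex tests through groups of 1.5 and 4.5 months, where it was higher. The cortex calls given next were kept in a fit without a filter, but the 3 month level lies at background. From 3 to 4.5 months Arntl rose by 0.36 ± 0.07 in the cortex (limma adjusted p = 0.00141) and by 0.39 ± 0.08 in the medulla (limma adjusted p = 0.00334). From 1.5 to 3 months it fell by 0.24 ± 0.07 in the cortex (limma adjusted p = 0.0247) and by 0.30 ± 0.08 in the medulla (limma adjusted p = 0.0248). Those last calls were close to the threshold: leaving out any 1 of 5 cortex arrays (1.5 months 3 Gy number 3 and 10 Gy number 3; 3 months 3 Gy number 1 and 10 Gy numbers 1 and 2) raised the limma adjusted p to between 0.0504 and 0.0604. In the medulla any 1 of 8 arrays (1.5 months 0.3 Gy numbers 2 and 3, 3 Gy numbers 1 and 3 and 10 Gy number 3; 3 months 0.3 Gy number 2, 3 Gy number 2 and 10 Gy number 1) raised it to between 0.0522 and 0.0743, as did a fit on only the arrays compared (0.0762). With the array that stood apart included, the limma adjusted p of Arntl in the exposed cortex was 0.554 for the fall and 0.249 for the rise, and that of the Per2 fall was 0.0662.

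The remaining members gave fewer calls in the exposed groups. Dbp, a D-box activator with a strong daily rhythm in many tissues, had medians of 12.75, 12.86 and 12.42 in the exposed medulla at 1.5, 3 and 4.5 months, and no array of 4.5 months reached the lowest of 3 months. It fell by 0.51 ± 0.11 from 3 to 4.5 months there (limma adjusted p = 0.00731); in the cortex the same difference was -0.32 ± 0.11 (limma adjusted p = 0.0749). Per3, a period gene that is dispensable for the loop, fell by 0.30 ± 0.07 in the medulla from 3 to 4.5 months (limma adjusted p = 0.017), with medians of 7.67 and 7.41. Without 3 Gy number 2 or without 10 Gy number 1 of 3 months that adjusted p was 0.0596 or 0.0553. Nr1d1, Nr1d2, Tef and Hlf passed the test in none of the comparisons between times of the exposed groups.

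Counted over the list, 3 members rose and 1 fell from 1.5 to 3 months among exposed arrays in the cortex (10 tested), and 3 rose and 1 fell in the medulla (9 tested), where 6.18% and 2.75% of all genes passed the test. From 3 to 4.5 months 1 rose and 3 fell in the cortex and 1 rose and 5 fell in the medulla, against 6.43% and 3.36% of all genes. The cortex counts of both steps include Arntl, which met the filter there only through groups of other times, where it was higher. The median member difference from 3 to 4.5 months was -0.27 in the cortex, beside 0.01 over all genes tested. Between 4.5 and 1.5 months 0 members passed in either tissue, where 0.494% and 0.184% of genes did; at an unadjusted p under 0.05 these were 2 members in the cortex (Dbp at -0.26 and Per3 at -0.18) and 2 in the medulla (Dbp at -0.25 and Per3 at -0.26).

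**Figure D2:**
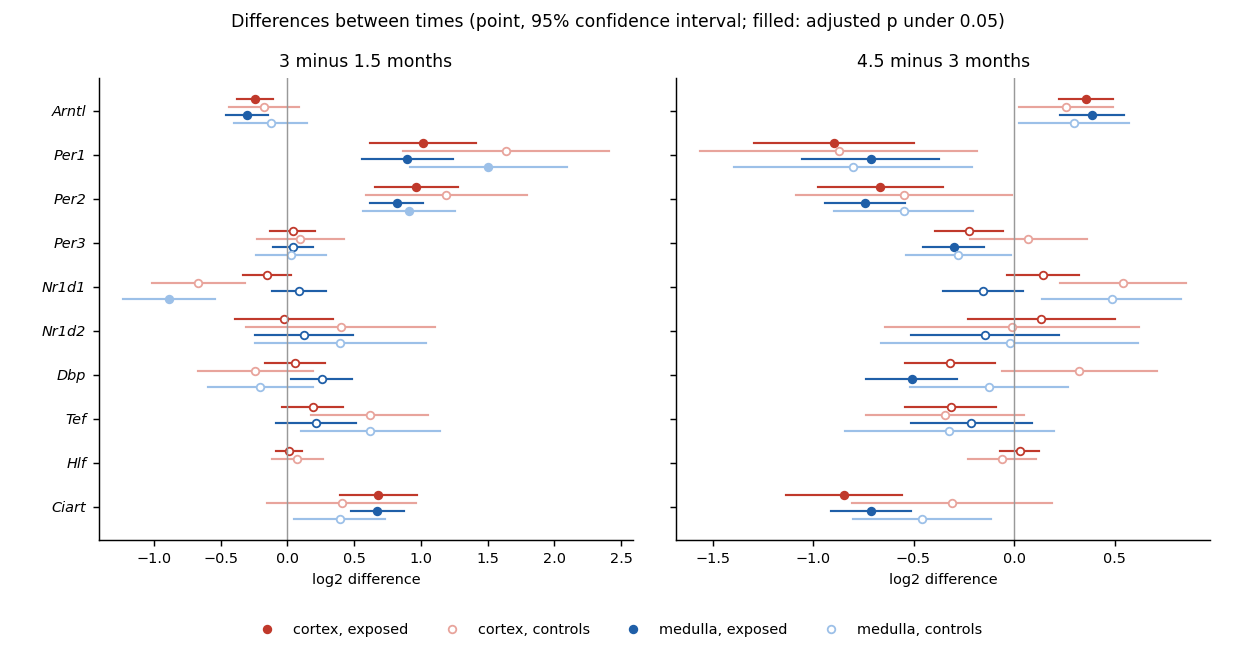
Log2 differences between times (horizontal axis) for the 10 members, with 95% confidence intervals, in exposed and control groups of both tissues; filled points passed the test. Exposed intervals are narrower (9 arrays a time) than control intervals (2 or 3), and Per1, Per2, Ciart and Arntl have the same sign in all 4 sets, while the Nr1d1 estimates from 1.5 to 3 months are -0.67 and -0.89 in the controls of cortex and medulla and -0.15 and 0.09 in the exposed groups.

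The unexposed controls, which share no arrays with the exposed groups, showed the Per1 and Per2 rise too. Control medulla Per2 was 9.94, 10.50 and 10.21 at 1.5 months, 11.05, 11.20 and 11.13 at 3 months and 10.87, 10.23 and 10.64 at 4.5 months. Per1 was 8.10, 8.47 and 8.74 at 1.5 months and 9.61, 9.99 and 10.23 at 3 months. Neither gene overlapped between 3 months and the other times in the controls of either tissue, nor did Nr1d1 in either tissue or Tef in the cortex. How many of all genes lack an overlap between so few arrays was not determined. From 1.5 to 3 months Per1 rose by 1.51 ± 0.29 (limma adjusted p = 0.00604) and Per2 by 0.91 ± 0.17 (limma adjusted p = 0.00549) in the control medulla.

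Nr1d1, the repressor of Arntl, fell in the control medulla. It stood there at 9.13, 8.79 and 8.97 at 1.5 months, 8.31, 7.82 and 8.11 at 3 months and 8.45, 8.70 and 8.55 at 4.5 months. The 3 month arrays were all lower than any other control medulla array, and Nr1d1 fell by 0.89 ± 0.17 from 1.5 to 3 months (limma adjusted p = 0.00591). The controls of the medulla thus gave 3 calls among 9 members, where 0.576% of all genes passed. All 3 depended on control medulla array number 1 of 1.5 months: without it the limma adjusted p was 0.0844 for Per1, 0.0757 for Per2 and 0.0741 for Nr1d1. Nr1d1 also lost its call without number 2 of 3 months (limma adjusted p = 0.0625), and Per1 without number 3 of 3 months (limma adjusted p = 0.088). In a fit on only the arrays compared, Nr1d1 and Per2 lost theirs (limma adjusted p = 0.128 and 0.0952).

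In the control cortex 0 of 10 members passed between 1.5 and 3 months, where 0.287% of genes did. At an unadjusted p under 0.05 there were 4: Per1 at 1.64 ± 0.38, Per2 at 1.19 ± 0.29, Nr1d1 at -0.67 ± 0.17 and Tef at 0.62 ± 0.21, with limma adjusted p of 0.0534, 0.0822, 0.0934 and 0.374. The 2 control cortex arrays of 1.5 months were far apart, at 7.90 and 9.17 for Per1 and at 9.44 and 10.97 for Per2. Without control number 1 of 3 months 2 members passed, and likewise without control number 2 of 1.5 months, which leaves 1 array at that time, assumed to vary like the other groups. Between 3 and 4.5 months 0 members passed in the controls of either tissue, against 0.551% of genes in the cortex and 0.518% in the medulla, and 1 passed in the cortex without control number 1 of 3 months. At an unadjusted p under 0.05 this comparison held Arntl, Nr1d1, Per1 and Per2 in the cortex and Arntl, Ciart, Nr1d1, Per1, Per2 and Per3 in the medulla. Between 4.5 and 1.5 months 0 control members passed, where 0.0115% of cortex and 0.0346% of medulla genes did; an unadjusted p under 0.05 was found for Per2 in the cortex and for Nr1d1, Per1 and Per2 in the medulla.

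Whether exposed and control groups differed in their time course was tested directly, in a comparison added after the values had been seen. No member passed, nor did any other gene tested (0% of 8710 genes in the cortex and of 8682 in the medulla). An unadjusted p under 0.05 was found for Nr1d1 at both steps in both tissues, for Dbp from 3 to 4.5 months in the cortex and for Dbp from 1.5 to 3 months in the medulla. From 1.5 to 3 months Nr1d1 changed by 0.09 in the exposed and by -0.89 in the control medulla. Exposed minus control was thus 0.97, with a 95% interval of 0.57 to 1.37 (limma adjusted p = 0.217). In the cortex the changes were -0.15 and -0.67, and exposed minus control was 0.52, with an interval of 0.12 to 0.91 (limma adjusted p = 0.999). The positive values mean a smaller fall, or none, in the exposed groups. Leaving out control number 1 of 3 months, or 0.3 Gy number 1 of 1.5 months, gave 1 call in the medulla. For Per2 the same quantity was -0.22 in the cortex (interval -0.90 to 0.45) and -0.09 in the medulla (interval -0.49 to 0.30), which leaves room for a difference of either sign.

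Differences among any of the 12 groups were tested with a moderated F test. Arntl, Per1, Per2 and Ciart passed in the cortex (4 of 10 members, 4.03% of all genes), and these and Nr1d1 in the medulla (5 of 9 members, 2.32% of all genes). Here and in the 3 month comparison below, cortex Arntl met the filter only through groups where it was higher. Its cortex calls are therefore not independent of the filter. The cortex count was 2 without 10 Gy number 2 of 3 months, and the medulla count was 3 without any 1 of 14 arrays. These were 3 control arrays (1.5 months number 3, 3 months numbers 2 and 3), 3 of 0.3 Gy (1.5 months number 2, 4.5 months numbers 1 and 3), 5 of 3 Gy (1.5 months number 1, 3 months numbers 1, 2 and 3, 4.5 months number 2) and 3 of 10 Gy (3 months number 1, 4.5 months numbers 1 and 3). When all 4 groups of 3 months were set against the mean of the other times, again chosen after the pattern had been seen, 6 members passed in the cortex (9.13% of all genes) and 5 in the medulla (6.54%). Beside Per1, Per2, Ciart and Arntl these were Nr1d1 at -0.26 ± 0.07 (limma adjusted p = 0.0118) and Tef at 0.31 ± 0.08 (limma adjusted p = 0.0179) in the cortex. A further, dim Tef probe was under the floor on 22 of 71 arrays. In the exposed cortex it gave -0.06 from 1.5 to 3 months and -0.05 from 3 to 4.5 months, where the probe used gave 0.19 and -0.32. In the exposed medulla it gave 0.18 and -0.20, beside 0.21 and -0.21. With the array that stood apart included, the adjusted p was 0.298 for Nr1d1, 0.0679 for Tef and 0.0534 for Arntl. In the medulla the fifth was Dbp at 0.28 ± 0.08 (limma adjusted p = 0.0424), a call that was lost without any 1 of 19 of the 36 arrays, most of all control number 1 of 3 months (limma adjusted p = 0.107).

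**Figure D3:**
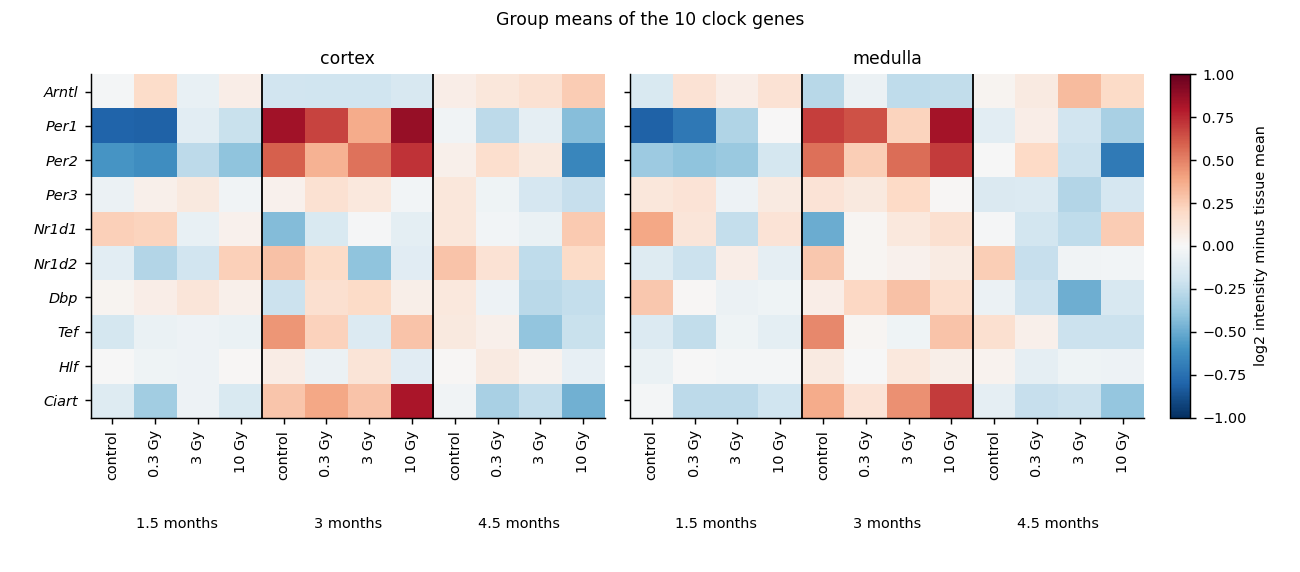
Group means of the 10 members as log2 intensity minus the mean of the 12 groups of that tissue (colour), by time and dose. The 3 month block is red for Per1, Per2 and Ciart in both tissues and blue for Arntl in the cortex, with the 4 top group means of 12 in that block for the former.

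A wider list held 11 further activators and repressors of the loop, of which 5 were tested in each tissue. From 1.5 to 3 months 0 passed in the exposed or control cortex and 1 rose in the exposed and in the control medulla. From 3 to 4.5 months 1 rose and 2 fell in the exposed cortex, 2 fell in the exposed medulla and 0 passed in the controls. Over all genes, 6.18% (exposed) and 0.287% (control) passed in the cortex from 1.5 to 3 months, and 2.75% and 0.576% in the medulla. From 3 to 4.5 months these shares were 6.43% and 0.551% in the cortex and 3.36% and 0.518% in the medulla. The gene that rose in the medulla was Cry2, the partner of the PER proteins, by 0.22 from 1.5 to 3 months in the exposed medulla and by 0.57 in the control medulla. Cry2 fell by 0.26 in the cortex and by 0.25 in the medulla from 3 to 4.5 months among exposed arrays. Rora, which activates Arntl at ROR elements, fell by 0.44 in the cortex and by 0.27 in the medulla from 3 to 4.5 months. Clock, the partner of ARNTL, rose by 0.26 in the cortex at that step. Of 10 genes tested in each tissue for enzymes and other proteins that modify clock proteins, Usp2, a deubiquitinase, rose by 0.75 in the exposed cortex and by 0.70 in the exposed medulla from 1.5 to 3 months, and the kinase gene Csnk1d fell by 0.23 in the exposed cortex. Usp2 also passed at this step in the control medulla, with a rise of 0.77.

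Among output genes known to be rhythmic in many tissues, 5 of 15 tested in the cortex rose and 1 fell from 1.5 to 3 months in exposed arrays, and 5 of 13 rose in the medulla. Over all genes 6.18% passed in the exposed cortex and 2.75% in the exposed medulla at this step. Noct, a rhythmic gene for a phosphatase of nicotinamide cofactors, rose by 1.50 in the cortex and by 1.02 in the medulla. Herpud1, Hspb1, Coq10b and Tsc22d3 were the others that rose, in both tissues, and Cirbp, a cold-inducible RNA-binding protein, fell by 0.54 in the cortex. At the same step Noct rose by 2.96 in the control cortex and by 2.05 in the control medulla, and Tsc22d3 by 1.61 and 1.42. Herpud1 passed in the control medulla (0.66), while Hspb1, Coq10b and Cirbp passed in the controls of neither tissue. Over all genes 0.287% passed in the control cortex and 0.576% in the control medulla. Among these output genes Noct passed at 3 Gy and 3 months against control, with differences of -1.62 in the cortex and -1.10 in the medulla, and Cdkn1a, a cell cycle inhibitor and p53 target, passed at 10 Gy averaged over times in the cortex (0.89). The 24 kidney transport and hormone genes, which include rhythmic channel and transporter genes, gave 1 rise and 2 falls among 21 tested in the exposed cortex and 1 rise in the exposed medulla from 1.5 to 3 months. Their median difference was 0.01 and -0.04, and the shares over all genes were again 6.18% and 2.75%.

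Several glucocorticoid targets changed at the steps at which Per1 and Per2 did. Of 13 tested, a list that includes Per1, 7 rose in the exposed cortex and 8 in the exposed medulla from 1.5 to 3 months. This list also shares genes with the lists above, so their counts are not separate findings. Over all genes 6.18% and 2.75% passed there. In the controls of each tissue 5 rose, where 0.287% of cortex and 0.576% of medulla genes passed. From 3 to 4.5 months 6 fell in the exposed groups and 3 in the controls of each tissue. Over all genes 6.43% and 3.36% passed in exposed cortex and medulla, and 0.551% and 0.518% in the controls. Fkbp5, a chaperone that dampens the glucocorticoid receptor, rose by 1.21 in the exposed cortex and by 2.01 in the control cortex, and Pdk4, a kinase that spares glucose, rose by 1.48 and 2.16. Against control, Fkbp5 also passed at 0.3 Gy and 3 months in the medulla (-1.39, limma adjusted p = 0.0459). The list median was 0.46 in the exposed and 0.75 in the control cortex, beside -0.01 over all genes in both. Summed over the 12 targets other than Per1, the intensity lay between 52209 and 77487 on control cortex arrays of 3 months, above the 29889 to 34134 of 1.5 months and the 35800 to 39490 of 4.5 months. On the exposed cortex arrays these ranges were 40237 to 59871 at 3 months, 29757 to 41578 at 1.5 months and 33101 to 41481 at 4.5 months. The part of these targets in the clock gene differences was not tested.

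The macrophage marker Adgre1 was higher at 4.5 months in the cortex of both arms, and the marker Lyz2 in the exposed cortex. Of 4 tested, Adgre1 (0.37) and Lyz2 (0.81) rose from 3 to 4.5 months in the exposed cortex, and Adgre1 (0.88) rose in the control cortex. Over all genes 6.43% and 0.551% passed there. Between 4.5 and 1.5 months Adgre1 (0.37) and Lyz2 (0.93) passed in the exposed cortex and Adgre1 (0.93) in the control cortex, where 0.494% and 0.0115% of all genes did. In the exposed cortex the summed intensity of the 4 ran from 906 to 1311 at 3 months and from 1007 to 2861 at 4.5 months, and in the control cortex from 818 to 1099 and from 1280 to 2287. The lowest value of a single marker was 157 and 150 in these exposed groups, beside the floor of 150. In the control groups it was 163 and 187. In the medulla 0 of 4 passed between any of the times. The markers of proximal tubule, thick ascending limb and collecting duct gave no call between 1.5 and 3 or 3 and 4.5 months in exposed arrays of either tissue. The part of macrophages in the clock gene differences was not tested.

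The comparison that names the study, absorbed dose against control, gave no call among the members. Averaged over the 3 times, 0 of 10 members in the cortex passed at 0.3, 3 or 10 Gy, where 0.103%, 0.218% and 0.023% of all genes did. In the medulla 0 of 9 passed, against 0.023%, 0.0691% and 0.0115% of all genes. At an unadjusted p under 0.05 the cortex gave 0, 2 and 0 members, the 2 at 3 Gy being Nr1d2 (-0.44, 95% interval -0.82 to -0.06) and Tef (-0.31, interval -0.55 to -0.08). The medulla gave 2, 1 and 2: Arntl at each dose, with differences of 0.19, 0.18 and 0.16, Ciart at 0.3 Gy (-0.21) and Nr1d1 at 10 Gy (0.22). The lowest limma adjusted p of a member over these comparisons was 0.262. The intervals of all members at 10 Gy lay between -0.45 and 0.48 in the cortex and between -0.51 and 0.58 in the medulla, so that an averaged difference of 1 log2 unit in either direction was outside them.

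**Figure D4:**
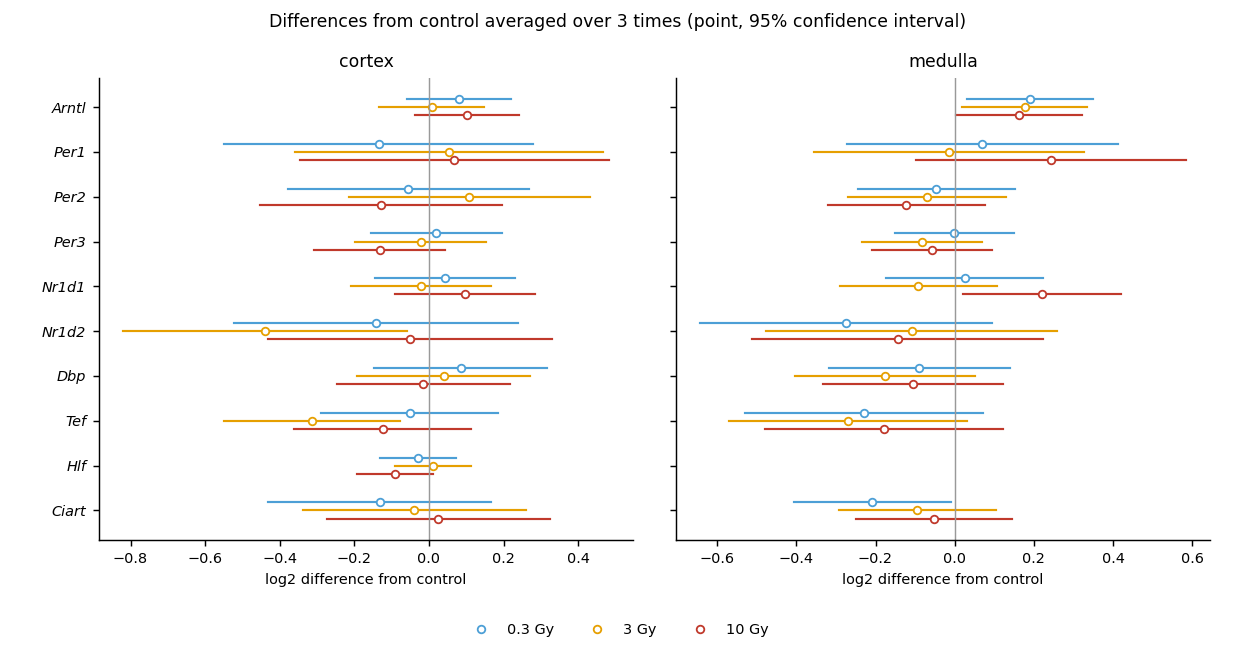
Log2 difference of each dose from control averaged over the 3 times (horizontal axis), with 95% confidence intervals, for the 10 members in the cortex and 9 in the medulla. No point is filled, as none passed the test, and estimates lie between -0.44 and 0.24.

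At single times 171 member differences from the control of the same time were tested over 18 comparisons, and 0 passed. An unadjusted p under 0.05 was found for 21 of them, and the lowest limma adjusted p was 0.193. Over all genes, the cortex shares that passed at 1.5, 3 and 4.5 months were 0%, 0.023% and 0.184% with 0.3 Gy, 0.0115%, 0.0459% and 0.0344% with 3 Gy, and 0% throughout with 10 Gy. The medulla shares were 0%, 0.0576% and 0.0691% with 0.3 Gy, 0%, 0.0461% and 0.0115% with 3 Gy, and 0%, 0% and 0.0115% with 10 Gy. The smallest unadjusted p among members were those of Per2 and Nr1d1 in the medulla. At 10 Gy and 4.5 months Per2 stood at 9.79, 10.02 and 9.81 against 10.87, 10.23 and 10.64 in the controls, a difference of -0.71 ± 0.17 (limma adjusted p = 0.294). The arrays did not overlap, but the share of all genes without an overlap was not determined. In the cortex the same groups held 9.81, 10.48 and 10.15 against 10.99, 10.88 and 10.67, a difference of -0.70 ± 0.26 (limma adjusted p = 0.999). Nr1d1 at 3 months in the medulla was higher than control at each dose, by 0.51, 0.60 and 0.65 ± 0.17 at 0.3, 3 and 10 Gy (limma adjusted p = 0.286, 0.193 and 0.583), and these 3 differences share the same low control arrays. At 1.5 months medulla Nr1d1 was instead lower than control at each dose. Its group means there were 8.70, 8.33 and 8.71 at 0.3, 3 and 10 Gy, against 8.96 in the controls.

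Pooling the doses did not change this. Averaged over times 0 members passed in the cortex (0.0344% of genes) or the medulla (0.0576%). At 1.5, 3 and 4.5 months 0 members passed against 0%, 0.023% and 0.0344% of genes in the cortex and 0%, 0.0115% and 0.0115% in the medulla. At an unadjusted p under 0.05 these 8 comparisons held 7 member values, of which the lowest limma adjusted p, 0.0854, was that of Nr1d1 at 3 months in the medulla (0.59 ± 0.14). Between 10 and 0.3 Gy 0 members passed (0.0459% of cortex and 0% of medulla genes), with 0 at an unadjusted p under 0.05. In the test of dose by time 0 passed (0.023% of cortex and 0% of medulla genes), with Nr1d1 in both tissues and Per2 in the medulla at an unadjusted p under 0.05.

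Averaged over the control groups, 1 of 10 members passed between medulla and cortex, while 37.4% of all genes did. That member was Hlf (limma adjusted p = 0.0378), which was under the floor on 5 of 8 control cortex and 8 of 9 control medulla arrays and entered the test through 2 exposed cortex groups, so its difference is between levels at background and is given no size. It lost its call without any 1 of 9 control arrays (cortex number 2 of 1.5 months, numbers 1 and 3 of 3 months and number 1 of 4.5 months; medulla numbers 1 and 3 of 1.5 months, numbers 1 and 2 of 3 months and number 1 of 4.5 months); without cortex control number 1 of 1.5 months 2 members passed. The other members' differences ran from -0.19 for Ciart to 0.11 for Arntl, with intervals between -0.55 and 0.33. The tissue labels went with several of their markers, but not with all. The collecting duct genes Slc14a2 (3.86), Fxyd4 (2.09) and Aqp2 (1.27) were higher in the medulla, and the proximal tubule genes Slc5a2 (-1.32) and Slc22a8 (-1.17) were lower. In the opposite direction, the collecting duct gene Hsd11b2 (-0.56) was lower in the medulla and the proximal tubule gene Slc34a1 (0.18) was higher. Each of these differences passed the test. In the tests of a difference between the tissues in dose or control time response 0 members passed, 0 had an unadjusted p under 0.05 and 0% of all genes passed. These tissue tests treated cortex and medulla arrays as separate, although arrays of the same number may come from the same animal.

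Single arrays of a group also differed in clock gene level, and for 5 of the 10 members these deviations correlated between the tissues by both Pearson's r and rank. For each gene the deviation of a cortex array from its group mean was set against that of the medulla array with the same group and number (35 such arrays a tissue, permutation test within groups, 10 relations). Dbp gave Pearson's r = 0.82 (permutation p = 4e-05, adjusted 0.0004) and Spearman's rho = 0.79 (permutation p = 4e-05, adjusted 0.0004). Ciart gave r = 0.81 (adjusted permutation p = 0.00223) and rho = 0.78 (adjusted 0.0018), and Per2 r = 0.70 (adjusted permutation p = 0.0014) and rho = 0.73 (adjusted 0.00065). Per1 (r = 0.61, adjusted permutation p = 0.0201; rho = 0.53, adjusted 0.0298) and Arntl (r = 0.48, adjusted permutation p = 0.029; rho = 0.47, adjusted 0.0346) passed with weaker relations. Nr1d1 passed by r (0.43, adjusted permutation p = 0.0406) but not by rho (0.40, adjusted 0.0528). Over the 9024 genes tested jointly the median r was 0.146. An r as high as that of Dbp, Ciart and Per2 was found in 0.199%, 0.233% and 0.765% of these genes, and one as high as that of Per1, Arntl and Nr1d1 in 2.09%, 6.57% and 9.67%.

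**Figure D5:**
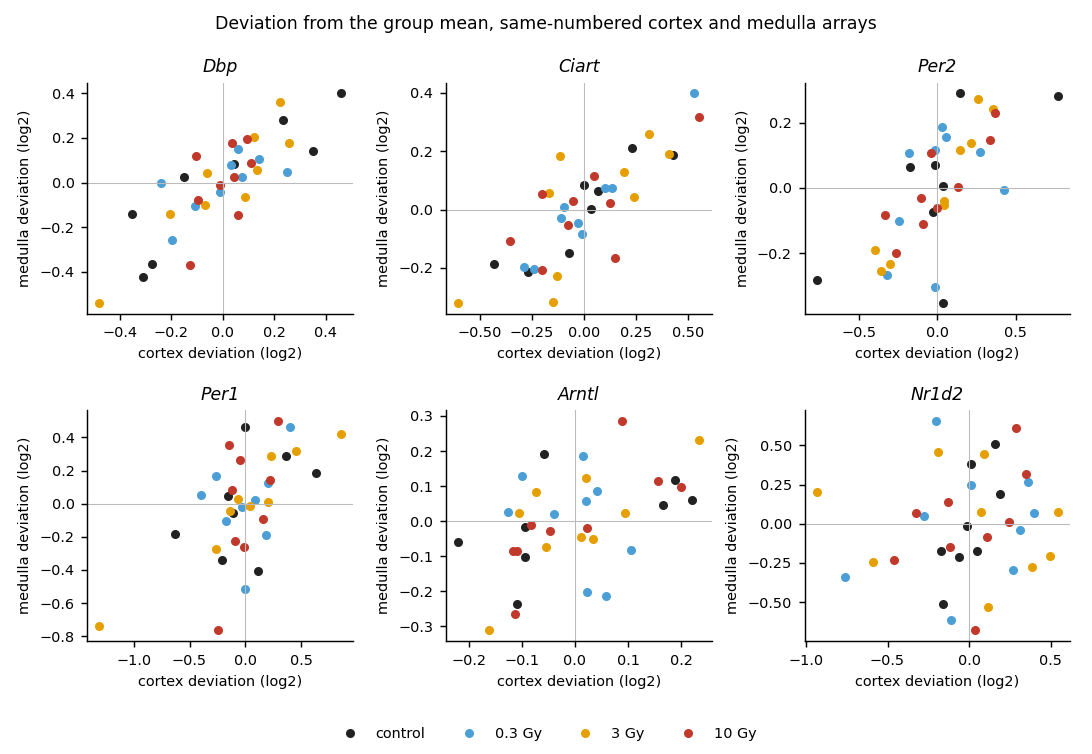
Deviation from the group mean on cortex arrays (horizontal axis, log2) and on the medulla arrays of the same group and number (vertical axis, log2), for 6 members; colours give the dose. Points of Dbp, Ciart and Per2 rise along the diagonal (r = 0.82, 0.81 and 0.70), and those of Nr1d2 do not (r = 0.12).

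Per3, Nr1d2, Tef and Hlf did not pass, with r of -0.27, 0.12, 0.39 and 0.20. Without the 2 arrays farthest from the median in the cortex, r was 0.74 for Dbp, 0.76 for Ciart, 0.65 for Per2, 0.45 for Per1 and 0.42 for Arntl. In control arrays of 3 months, for example, Dbp was 12.98, 12.37 and 12.21 for cortex numbers 1, 2 and 3 and 13.12, 12.75 and 12.30 for medulla numbers 1, 2 and 3. The labels do not say whether arrays of the same number came from the same animal.

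Within a tissue, deviations of Arntl were set against those of the other 9 members in 18 relations. The strongest was with Dbp: r = -0.64 in the cortex (permutation p = 0.00809, adjusted 0.0728) and r = -0.63 in the medulla (permutation p = 0.00429, adjusted 0.0728). By rank these were rho = -0.55 (adjusted permutation p = 0.125) and rho = -0.61 (adjusted permutation p = 0.0448), so that 1 of the 18 relations passed by rank and 0 by Pearson's r. Per2 gave r = -0.56 in the cortex and -0.43 in the medulla, with adjusted permutation p of 0.142 and 0.164.

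Over all arrays of a tissue, groups included, the genes whose levels ran most like a member were listed as a description. Most like Per2 in the cortex (35 arrays, 8709 other genes) were Tsc22d3 (r = 0.87), a glucocorticoid-induced leucine zipper gene, Creld2 (0.84), Herpud1 (0.81), Per1 (0.81) and Usp2 (0.81). In the medulla (36 arrays, 8681 other genes) they were Slc25a25 (0.83), Ciart (0.82), Usp2 (0.82), Herpud1 (0.81) and Noct (0.80). Most like Dbp were Per3 (0.69), Nmral1 (0.65), Slc51a (0.62), Tmem192 (0.58) and Mcm10 (0.57) in the cortex and Edar (0.64), Rhebl1 (0.63), Rnmt (0.61), Txnip (0.60) and Ciart (0.59) in the medulla. Most like Arntl were Glipr2 (0.70), Myd88 (0.69), Wsb1 (0.69), Clec7a (0.68) and Plek (0.68) in the cortex and Trim3 (0.69), Il16 (0.66), Marcks (0.66), Cxcr4 (0.66) and Cdc42ep2 (0.65) in the medulla. At the opposite end for Arntl stood Sypl2 (-0.79), Bap1 (-0.76), Ak4 (-0.76), Rtkn (-0.74) and Usp2 (-0.73) in the cortex and Slc25a42 (-0.77), Slc25a33 (-0.75), Dbp (-0.75), Ciart (-0.72) and Lpin1 (-0.72) in the medulla. The arrays share their groups and their normalization, and the Per2 list was added after the values had been seen.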

How the data were processed

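Intensity values of 72 arrays, on a linear scale, were deposited by the authors; the sorted columns differ by at most 1.26 units, as after quantile normalization. Software and background treatment are not given in the sources used here. A second table, with 144 columns that no label names, was not used. The deposited intensities were put on the log2 scale. Of 25697 probes, 23978 had 1 symbol. The filter kept a probe that reached 150 throughout 1 or more groups, and the brightest probe stood for its gene, leaving 8710 genes in the cortex (35 arrays), 8682 in the medulla (36) and 9024 jointly (71). One mean per group was estimated by limma 3.58.1 (lmFit, eBayes with trend, R 4.3.3), with two-sided p-values, Benjamini-Hochberg adjustment across every gene tested and a threshold of 0.05. The procedure was tested on simulated data. Correlations used 100000 permutations within groups (scipy 1.17.1). Members, gene lists and tests were chosen with earlier results of these data known. All 10 members were named; other genes by list and call, or by likeness. The number of arrays limits the precision. Alternatives were other filters, probes, normalizations, weights, blocks and arrays left out.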

Additional observations from a re-analysis of the deposited data

Results flagged for a closer look

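The cortex control array number 3 of 1.5 months, left out of the comparisons above, carried an Arntl signal above that of the other cortex arrays. Its Arntl value was 8.86 (log2), where the other cortex arrays ran from 7.03 to 7.79 and the other control cortex arrays from 7.05 to 7.57. Per2, Per3, Nr1d1, Dbp, Tef and Ciart lay below every other cortex array, Dbp at 10.42 against 12.21 to 13.14. Its mean correlation with the other cortex arrays was 0.769, against 0.976 to 0.984 among them. On this array the median marker of the proximal tubule differed by -2.93 from the median of the other cortex arrays and that of the thick ascending limb by -4.56, while macrophage and erythroid markers differed by 3.11 and 3.07. The part of these markers in the Arntl value was not tested.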

How the results depend on the processing

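Of 1587 counts of members called under the alternatives, 1534 stayed within 1.5 times the main count, and of 1085 values of single called members, 1025 kept their direction and call, 60 kept their direction but lost the call and 0 reversed. In the dose comparisons 832 of 837 counts were 0. For controls from 1.5 to 3 months in the cortex, 0 members became 1 with a floor of 200 or the mean of all probes, 3 with array weights, 2 with both tissues in 1 fit and 2 with all 36 cortex arrays; leaving out single arrays gave 0 to 2. For controls from 3 to 4.5 months in the cortex, 0 became 1 with cyclic loess or array weights, and 0 to 1 with arrays left out. With all 36 cortex arrays, the exposed count from 3 to 4.5 months was 2, the F test over groups 2 and the 3 month comparison over all groups 3. With array weights, the medulla gave 1 member for 0.3 Gy at 1.5 months, 1 for 3 Gy at 3 months, 1 for 10 Gy at 4.5 months, 1 for all doses at 3 months and 2 for dose by time; these weights did not fully converge. The medulla test of exposed against control from 1.5 to 3 months gave 1 with the mean of probes, array weights or both tissues in 1 fit, and 0 to 1 with arrays left out. Medulla controls from 1.5 to 3 months gave 1 with only the arrays compared, and 0 to 3 with arrays left out. Control medulla against cortex gave 0 with no filter and 0 with all 72 arrays, and 0 to 2 with arrays left out. The F tests gave 2 to 5 in the cortex and 3 to 5 in the medulla with arrays left out. The causes were not tested.

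Over the 8493 probes at or above 150 on all arrays, deviations from the group mean on cortex and medulla arrays of the same group and number correlated with a median of 0.122, and 19 of 35 pairs exceeded 0.1; with another number of the group the median was -0.134, and 15 of 68 did. Deviations within a group cancel out, so a positive median for same numbers goes with a negative one for other numbers, and these medians are not independent. Not every same-numbered pair exceeded 0.1, and the main tissue tests did not take the numbers as pairs. Arrays from 1 animal need not all exceed 0.1, so these values do not settle whether the numbers pair the tissues. With the replicate number as a block (replicate block) the medulla F test gave 3 members; it moved no other count of members past 1.5 times. Blocking the joint fit on cortex and medulla pairs used a correlation of 0.142, a single value for all genes. Dim probes limit Arntl, Per3, Hlf and Ciart.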
